A study of Homo sapiens with 6 samples.

Results

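Antisense RNA genes were examined together with the protein-coding or other genes they are named after, in BT549 cells in which miR-200c, a microRNA, can be switched on. Members were the symbols that consist of a gene name followed by -AS1, that had at least 3 rows on the array, and whose sense gene had rows of its own. The rule found 439 antisense genes of 22085 genes measured, with 5208 rows of the 924687 tested, and each was paired with its sense gene (24270 rows). BT549 is an established human breast cancer line of the triple-negative, mesenchymal kind. The 3 miR-200c cultures (A, B and C) received doxycycline at 1 µg/mL for 48 h, and the 3 Ctrl cultures (A, B and C) grew without the drug for the same time; both groups carried the pTripZ-200c construct. Each culture gave 1 array, so n = 3 per group throughout. No culture without the construct received the drug, so effects of doxycycline itself and of miR-200c cannot be told apart. The submitters call the cultures biological triplicates and say that they were plated in triplicate; separate passages are not mentioned, so the p-values cover the spread between these platings only.

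Natural antisense transcripts are made from the strand opposite to a gene. Some start beside the promoter of the sense gene and run away from it, others start inside the gene or beyond its end and run back over it. Individual antisense RNAs are known to raise or lower the output of their sense gene, by guiding chromatin enzymes, by transcription across the sense promoter or by pairing with the sense mRNA, and many others have no known role. The miR-200 family represses the transcription factor genes ZEB1 and ZEB2, and ZEB1 has an antisense partner, ZEB1-AS1. The mature sequences of the induced microRNA are shown, with bases 2 to 8 (the seed, which pairs with targets) in capitals, as RefSeq gives them for GRCh38.p14 (chr12:6963742-6963764 and chr12:6963703-6963724, + strand).
hsa-miR-200c-3p: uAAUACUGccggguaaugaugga
hsa-miR-200c-5p: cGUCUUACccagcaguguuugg

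The arrays bore out the labels for the induced gene: the row of MIR200C averaged 9.53 ± 0.02 in miR-200c cultures and 4.96 ± 0.26 in Ctrl cultures on the log2 intensity scale (SD, n = 3 each). The mesenchymal markers VIM, FN1, CDH2, AXL and CAV1 averaged between 8.97 and 10.46 in Ctrl cultures. ESR1, PGR, EPCAM, CDH1 and ERBB3 averaged between 4.64 and 5.33 there, within the range of the 23 background control rows, which ran from 4.10 to 6.36. A mean below 6.36 is called within the background range here; it does not place every row of the gene there. In bulk RNA fewer cells with a transcript and less transcript per cell cannot be told apart.

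A value for an antisense gene has a meaning of its own only if the array keeps the strands apart, and the labels name the FlashTag biotin kit without saying whether it preserves the strand. Spike-in control RNAs have rows for both strands, named st and at, in 12 segments. The st row was higher in 72 of 72 values, by 1.46 to 4.50 log2 units with a median of 2.63. Rows named at still reached 7.59, above the background range. These are control rows only, and how much of an antisense row's signal came from the sense strand was not tested.

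Antisense genes gave weak signals. Of the 439, 24 (5.47%) had a group mean above the background range, against 200 (45.6%) of their sense partners and 38.6% of all genes. An antisense gene had a median of 7 rows, from 3 in the smallest members to 399 in ZNRD1-AS1, and a sense gene had a median of 44. Of the 5208 antisense rows, 3077 were exon regions and 2131 exon junctions, and 673 rows (12.9%) lay above the background range, compared with 36.5% of all rows. The median level over the members was 4.77 to 4.82 in the miR-200c arrays and 4.79 to 4.84 in the Ctrl arrays, so the arrays overlapped. The plot of signal by gene set shows these distributions.

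**Figure D1:**
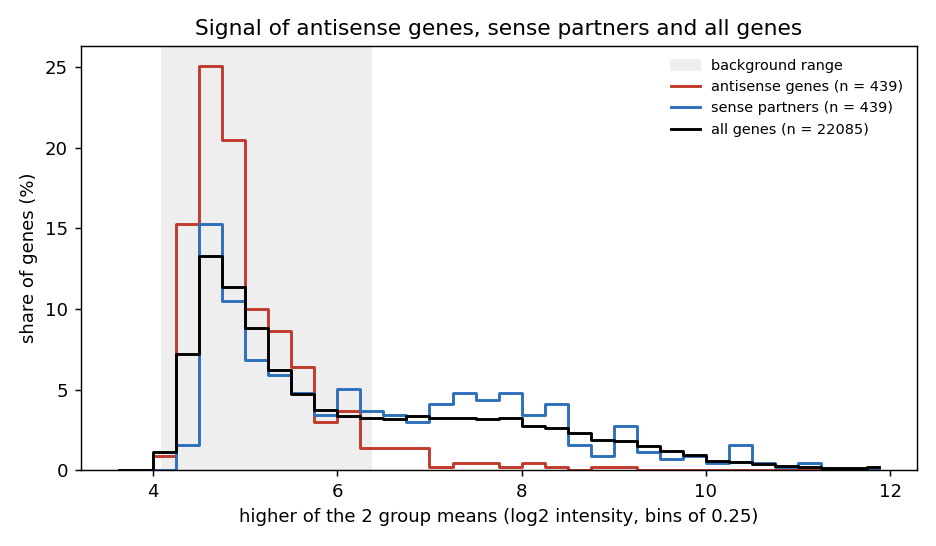
Share of genes (%) by the higher of the 2 group means (log2 intensity, bins of 0.25) for 439 antisense genes, their 439 sense partners and all 22085 genes. The shaded band is the background range, 4.10 to 6.36, and all but 24 antisense genes lie inside it.

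The first comparison asked which antisense genes differed after induction of miR-200c. Of the 439, 6 rose and 3 fell in limma's fit over all genes (Benjamini-Hochberg adjusted p under 0.05), and 430 did not pass; these 9 are 2.05% of the members, while 9.9% of all genes were called (6.06% higher and 3.84% lower). At an unadjusted p under 0.05, 36 members passed. The values of the groups did not overlap in 13.7% of the members and in 26% of all genes. The change over all members, miR-200c minus Ctrl, had a median of -0.02 with extremes of -0.32 and 0.39. Taken as the mean over its rows, no antisense gene moved by more than 0.5 on the log2 scale, though single rows moved further. The median change over all genes was -0.01. Antisense genes with a group mean above the background range were called in 4 of 24 cases (16.7%), where 19.1% of all genes at such levels were called. Those with both means in the range were called in 5 of 415 cases (1.20%), where 4.11% of all such genes were called. These shares were not matched for level within the range. By the higher group mean, the bin starting at 4.5 held 25.1% of the members and 13.3% of all genes. Of all genes in that bin 9 of 2935 were called, against 118 of 748 in the bin starting at 6. How much of the lower share of members came from their level was not tested. The median SE of a change was 0.04 for the members and 0.04 for all genes.

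HAS2-AS1, the antisense partner of the hyaluronan synthase gene HAS2, had the largest change among the members. Its values were 6.14, 6.07 and 6.16 in miR-200c cultures A, B and C, against 5.69, 5.73 and 5.79 in Ctrl cultures A, B and C. The groups did not overlap, and the change was 0.39 (SE 0.04) on the log2 scale, with a limma adjusted p of 7.34e-04. Both means lay within the background range, but 8 of its 17 rows lay above it and 15 of 17 rows had a positive change, up to 1.00. HAS2 itself, whose product makes the matrix polysaccharide hyaluronan, had 7.94, 7.93 and 7.96 in miR-200c cultures, against 7.95, 7.79 and 7.94 in Ctrl cultures. These groups overlapped, and HAS2 did not pass (change 0.05, SE 0.05, adjusted p = 0.674). In human smooth muscle cells HAS2-AS1 is known as an RNA that aids HAS2 transcription. With the median of the rows in place of their mean the change of HAS2-AS1 was 0.65 with an adjusted p of 0.330.

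RAB11B-AS1, on chromosome 19, lies opposite RAB11B, which encodes a small GTPase of recycling endosomes. It had 6.50, 6.50 and 6.61 in miR-200c cultures, against 6.33, 6.31 and 6.22 in Ctrl cultures. All miR-200c values exceeded all Ctrl values (change 0.25, SE 0.05, limma adjusted p = 0.0103), with the Ctrl mean within the background range. That mean mixed rows at different levels, and 2 of its 5 rows lay above the range. The brightest row was at 9.13 in miR-200c and 9.15 in Ctrl cultures, a change of -0.02. The largest rise was in an exon junction, at 6.62 against 5.90, and no row passed on its own. RAB11B had a change of 0.11 that did not pass (adjusted p = 0.113). With exon region rows alone RAB11B-AS1 had a change of 0.13 and did not pass (adjusted p = 0.0775). C13orf44-AS1, now named SMIM2-AS1, on chromosome 13, had 4.86, 4.85 and 4.91 in miR-200c cultures and 4.62, 4.67 and 4.63 in Ctrl cultures. Its groups did not overlap, and it rose by 0.24 (SE 0.03, adjusted p = 0.00331) with all 10 rows within the background range. Its sense gene, for a small membrane protein, had a change of 0.06 (adjusted p = 0.505). With brighter rows alone C13orf44-AS1 had a change of 0.42 with an adjusted p of 0.0837.

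KDM4A-AS1 and XXYLT1-AS1 each had a single exon junction that passed on its own. KDM4A-AS1, opposite the histone demethylase gene KDM4A on chromosome 1, had 6.65, 6.52 and 6.50 in miR-200c cultures, against 6.37, 6.40 and 6.32 in Ctrl cultures, a rise of 0.19 (SE 0.05, limma adjusted p = 0.0336). One junction row of 20 rose by 0.93 (adjusted p = 0.0270 over all rows), and with exon region rows alone the gene had a change of 0.07 (adjusted p = 0.492). The brightest row of KDM4A-AS1 was at 13.13 in miR-200c and 13.32 in Ctrl cultures, a change of -0.19, while 12 of the 20 rows had a positive change. KDM4A had a change of -0.07 and did not pass (adjusted p = 0.327). XXYLT1-AS1, on chromosome 3, lies within XXYLT1, which encodes a xylosyltransferase that acts on Notch. It had 4.72, 4.83 and 4.73 in miR-200c cultures, against 4.94, 5.06 and 4.92 in Ctrl cultures, a fall of 0.22 on the log2 scale (change -0.22, SE 0.05, adjusted p = 0.0269). One junction of its 7 rows fell by 1.06 (adjusted p = 0.0347 over all rows), and with exon region rows alone the change was 0.01 (adjusted p = 0.950). XXYLT1 had a change of -0.02 (adjusted p = 0.821). These 2 junctions were the only antisense rows that passed, 0.0384% of the 5208, where 0.728% of all rows passed.

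Leaving out 1 array ended the call of KDM4A-AS1 without miR-200c A (adjusted p = 0.0793), without miR-200c B (0.0748), without Ctrl A (0.0893) and without Ctrl C (0.110). XXYLT1-AS1 lost its call without miR-200c A (adjusted p = 0.0814), miR-200c C (0.0945), Ctrl A (0.0601) and Ctrl B (0.0548). HAS2-AS1, RAB11B-AS1 and C13orf44-AS1 passed in each of the 6 fits with 1 array left out.

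**Figure D2:**
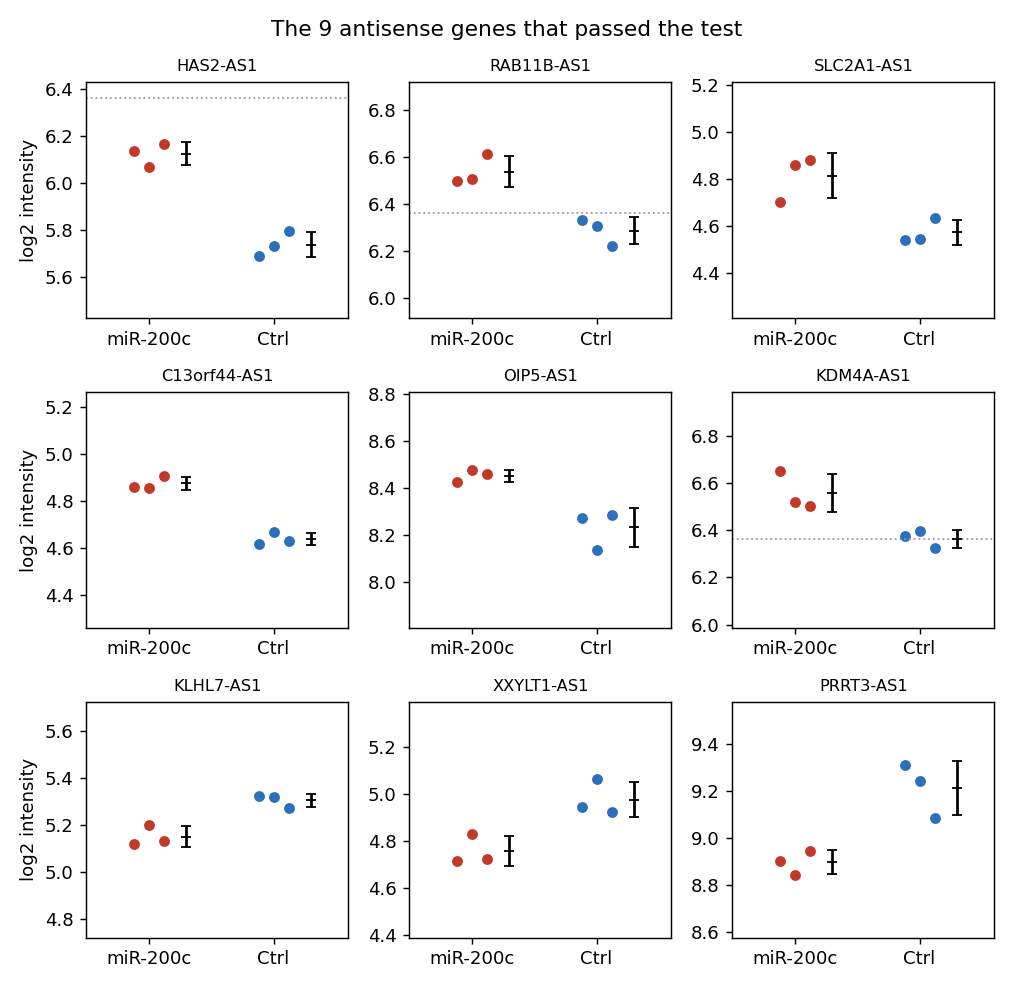
Log2 intensity of the 9 antisense genes that passed, 1 point per array, miR-200c cultures left of Ctrl cultures, with the mean and SD (n = 3 each) beside the points. Each panel spans 1 log2 unit and a dotted line marks the top of the background range; the groups do not overlap in any panel, with 6 genes higher and 3 lower in miR-200c cultures.

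**Figure D3:**
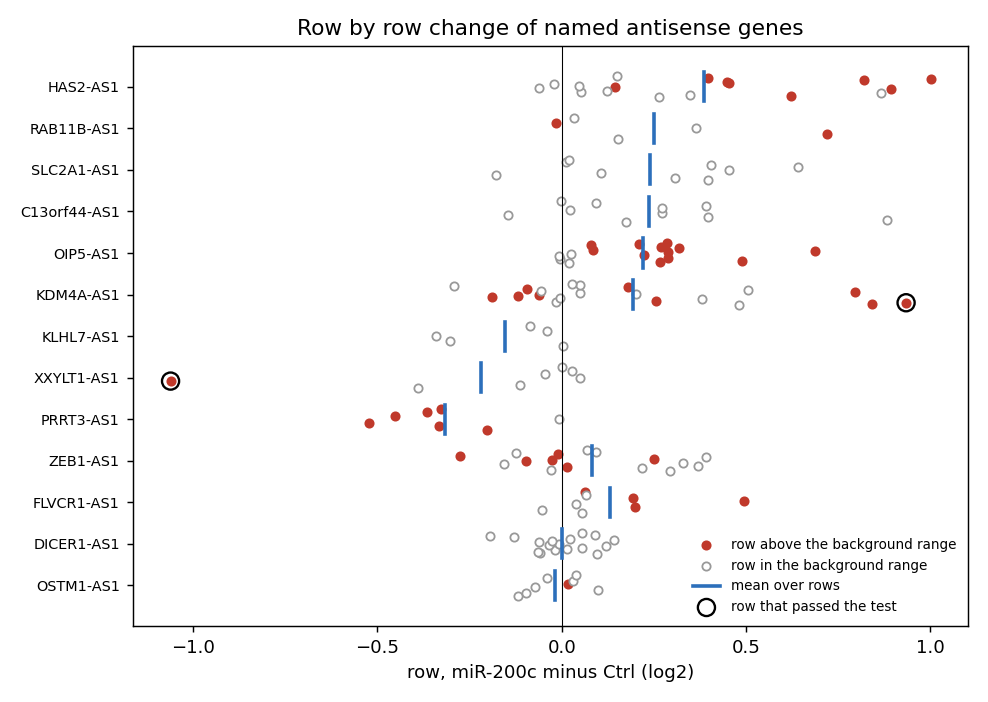
Change of each row (miR-200c minus Ctrl, log2) for the 9 antisense genes that passed and for ZEB1-AS1, FLVCR1-AS1, DICER1-AS1 and OSTM1-AS1, with filled points for rows above the background range and a bar at the mean over rows. All 7 rows of PRRT3-AS1 were negative and 15 of 17 rows of HAS2-AS1 positive, while in KDM4A-AS1 and XXYLT1-AS1 a single ringed junction passed the test.

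The next comparison set the change of each antisense gene beside that of its sense gene. Of the 439 sense partners 52 rose and 20 fell, which is 16.4% against 9.9% of all genes; among sense partners above the background range it was 26% of 200, against 19.1% of all genes at such levels. Both genes of a pair passed in 4 cases, the antisense gene alone in 5, the sense gene alone in 68 and neither in 362. Of the 4 pairs with both genes called, SLC2A1 and OIP5 moved with their antisense partners, and PRRT3 and KLHL7 moved the opposite way. Across the 439 pairs the antisense and the sense change had a Pearson r of 0.07 and a Spearman rho of 0.06, and 234 pairs (53.3%) had the same sign. This describes the pairs and is no test, since all pairs share the same 6 arrays and most antisense genes lie in the background range. In the 18 pairs with both genes above the range r was -0.03. The scatter of antisense against sense change shows the 4 pairs.

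**Figure D4:**
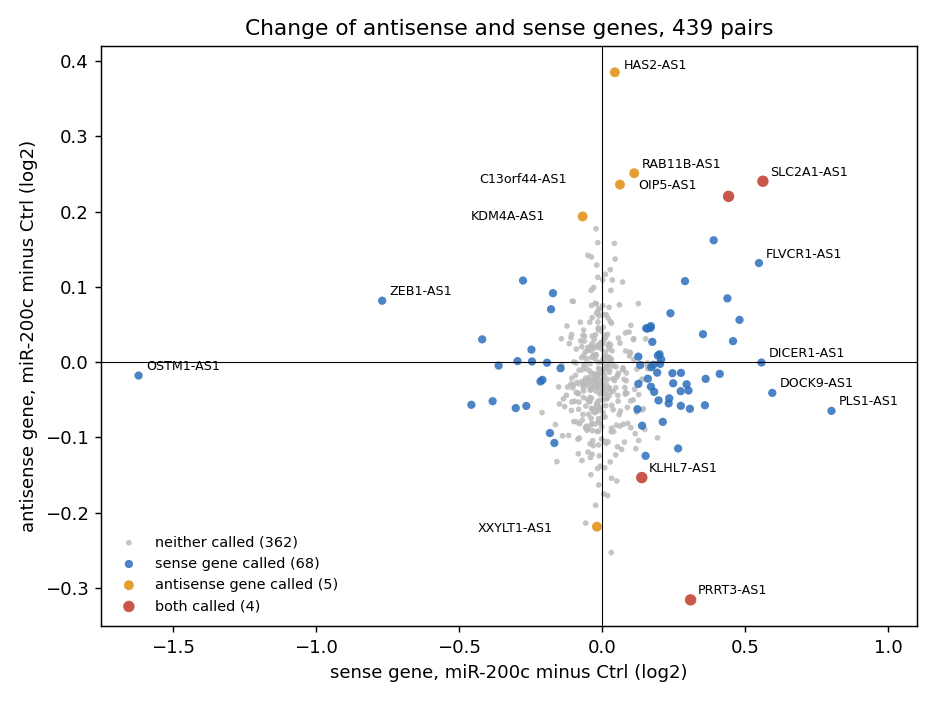
Change of the antisense gene (vertical) against change of its sense gene (horizontal), both miR-200c minus Ctrl in log2 units, for 439 pairs, coloured by which of the genes passed the test. Sense changes run from -1.62 to 0.80 and antisense changes from -0.32 to 0.39, and the 68 pairs with the sense gene alone called have antisense changes between -0.12 and 0.16.

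SLC2A1 encodes the glucose transporter GLUT1, and its antisense partner SLC2A1-AS1, now named SLC2A1-DT, starts upstream of it on the opposite strand of chromosome 1. SLC2A1-AS1 had 4.70, 4.86 and 4.88 in miR-200c cultures, against 4.54, 4.54 and 4.64 in Ctrl cultures. The groups did not overlap, and it rose by 0.24 (SE 0.05, limma adjusted p = 0.0249) with each of its 9 rows in the background range. SLC2A1 had 9.28, 9.22 and 9.24 in miR-200c cultures, against 8.66, 8.72 and 8.67 in Ctrl cultures, and rose by 0.56 (SE 0.04, adjusted p = 3.80e-05). The antisense call was lost without miR-200c B (adjusted p = 0.103), miR-200c C (0.0880), Ctrl A (0.0898) and Ctrl B (0.0643).

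OIP5 encodes a protein that helps load the centromeric histone CENP-A, and OIP5-AS1, the human counterpart of the zebrafish RNA cyrano, overlaps its far end on chromosome 15. OIP5-AS1 had 8.42, 8.47 and 8.46 in miR-200c cultures, against 8.27, 8.14 and 8.29 in Ctrl cultures. It rose by 0.22 (SE 0.05, limma adjusted p = 0.0184), with 12 of 16 rows above the background range and 14 of 16 with a positive change. OIP5 had 8.16, 8.27 and 8.33 in miR-200c cultures, against 7.96, 7.51 and 7.96 in Ctrl cultures, and rose by 0.44 (SE 0.11, adjusted p = 0.0450). Ctrl B was the lowest array for both genes, and without it OIP5 had a change of 0.29 in place of 0.44, a smaller value that still passed (adjusted p = 0.0145), as did OIP5-AS1. OIP5-AS1 lost its call without miR-200c B (adjusted p = 0.0801) and miR-200c C (0.0621), and OIP5 without miR-200c A (0.0584), miR-200c B (0.140), miR-200c C (0.141) and Ctrl A (0.0502).

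PRRT3, a gene for a proline-rich membrane protein, and PRRT3-AS1 overlap at their 5′ ends on chromosome 3. PRRT3-AS1, the brightest of the 439 members, had 8.90, 8.84 and 8.95 in miR-200c cultures, against 9.31, 9.24 and 9.09 in Ctrl cultures. Every miR-200c value was below every Ctrl value; it fell by 0.32 on the log2 scale (SE 0.06, limma adjusted p = 0.0110), and 7 of 7 rows had a negative change. PRRT3 had 6.99, 6.82 and 6.97 in miR-200c cultures, against 6.70, 6.55 and 6.60 in Ctrl cultures, and rose by 0.31 (SE 0.06, adjusted p = 0.00953), with 11 of 15 rows positive and 2 that passed. The antisense change minus the sense change was -0.63 (SE 0.07), a description, since the pair was picked for its opposite calls. Without miR-200c B the adjusted p of PRRT3-AS1 was 0.0559, and with the median over rows that of PRRT3 was 0.131 and that of PRRT3-AS1 0.0853.

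KLHL7, an adaptor gene of a cullin ubiquitin ligase, and KLHL7-AS1, now KLHL7-DT, on chromosome 7, also moved apart, by small amounts. KLHL7-AS1 had 5.12, 5.20 and 5.13 in miR-200c cultures, against 5.32, 5.32 and 5.27 in Ctrl cultures, all within the background range (change -0.15, SE 0.04, limma adjusted p = 0.0341). KLHL7 had 7.05, 7.04 and 7.05 in miR-200c cultures, against 6.89, 6.93 and 6.90 in Ctrl cultures (change 0.14, SE 0.03, adjusted p = 0.0260). Of the 6 fits with 1 array left out, KLHL7-AS1 passed only without miR-200c B, with adjusted p of 0.0596 to 0.117 in the other 5. KLHL7 passed only without Ctrl B, with 0.0797 to 0.0908 in the others. Taken as the median over rows, none of these 4 antisense genes passed (adjusted p of 0.0853 to 0.540).

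In 68 pairs the sense gene passed and its antisense partner did not: 48 sense genes rose and 20 fell. The antisense changes in these pairs lay between -0.12 and 0.16 with a median of -0.01, and 65 of the 68 antisense genes were within the background range. The antisense change had the sign of the sense change in 29 pairs and the other sign in 39. Where the sense gene rose the median antisense change was -0.01, and where it fell it was -0.01 too.

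ZEB1, a repressor of epithelial genes and a known target of miR-200c, fell to 6.71, 6.71 and 6.75 in miR-200c cultures, against 7.44, 7.52 and 7.51 in Ctrl cultures (change -0.77, SE 0.04, limma adjusted p = 1.07e-05). ZEB1-AS1 on chromosome 10 had 6.31, 6.24 and 6.25 in miR-200c cultures, against 6.18, 6.17 and 6.20 in Ctrl cultures, all within the background range. Its values did not overlap and leaned the other way (change 0.08, SE 0.04), but did not pass (adjusted p = 0.219). Of its 16 rows, 9 had a positive change, and 6 lay above the background range. From the brightest down, these 6 had changes of -0.10, -0.03, -0.01, 0.02, 0.25 and -0.28. The antisense change minus the sense change was 0.85 (SE 0.04). With the median of the rows ZEB1 had a change of -0.51 with an adjusted p of 0.0784. The windows from 250 bases before to 50 after the RefSeq starts of the genes (GRCh38.p14) are shown for this pair because ZEB1 itself binds the E-box CAGGTG; it was searched on both strands (CACCTG is its reverse complement), and matches are in capitals.
ZEB1 (chr10:31318167-31318466, + strand): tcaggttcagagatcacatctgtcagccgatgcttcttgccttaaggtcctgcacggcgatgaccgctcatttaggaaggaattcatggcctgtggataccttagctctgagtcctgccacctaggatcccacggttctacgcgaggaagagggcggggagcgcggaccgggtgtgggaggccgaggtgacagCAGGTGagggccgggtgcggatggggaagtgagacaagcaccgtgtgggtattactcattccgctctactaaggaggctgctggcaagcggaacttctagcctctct
ZEB1-AS1 (chr10:31319046-31319345, - strand): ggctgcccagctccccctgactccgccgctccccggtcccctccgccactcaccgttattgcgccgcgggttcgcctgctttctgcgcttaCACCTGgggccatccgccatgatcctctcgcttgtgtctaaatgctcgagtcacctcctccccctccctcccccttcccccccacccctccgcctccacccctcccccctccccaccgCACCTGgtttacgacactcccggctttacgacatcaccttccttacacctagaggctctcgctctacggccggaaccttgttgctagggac
The motif stood in 20.6% of the 35116 promoter windows of the RefSeq table, in 17.8% of the 304 sense windows and in 22.0% of the 304 antisense windows of pairs that have both. A match describes the letters and is no evidence of binding.

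The largest fall among the sense partners was that of OSTM1, which encodes a subunit of a lysosomal chloride transporter. OSTM1 had 6.38, 6.40 and 6.51 in miR-200c cultures, against 8.09, 7.92 and 8.13 in Ctrl cultures (change -1.62, SE 0.06, limma adjusted p = 2.67e-06). OSTM1-AS1 had 4.75, 4.78 and 4.78 in miR-200c cultures, against 4.77, 4.78 and 4.81 in Ctrl cultures (change -0.02, SE 0.03, adjusted p = 0.825), and its groups overlapped. PLS1, which encodes an actin-bundling plastin of epithelia, had the largest rise among the sense partners, 0.80 (adjusted p = 9.31e-05), and PLS1-AS1 had 4.30, 4.14 and 4.13 in miR-200c cultures and 4.28, 4.37 and 4.11 in Ctrl cultures. DOCK9, an activator of the GTPase CDC42, rose by 0.60 (adjusted p = 2.11e-05), with DOCK9-AS1 at a change of -0.04 (SE 0.06, adjusted p = 0.769). SAMD12 and CHODL, a sterile alpha motif protein gene and a membrane lectin gene, rose by 0.48 and 0.46 (adjusted p = 3.49e-04 and 1.16e-04), with both means of each within the background range. With the median over rows neither sense gene passed (adjusted p = 0.112 for SAMD12 and 0.143 for CHODL). SAMD12-AS1 and CHODL-AS1 had changes of 0.06 and 0.03 (adjusted p = 0.470 and 0.853).

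Divergent pairs, whose starts lie back to back, were looked for by RefSeq position. In RefSeq 305 pairs could be placed: in 103 the antisense gene lay within the sense gene, in 96 the genes overlapped at their 5′ ends, in 41 at their 3′ ends, and in 48 they stood head to head without overlap, within 5000 bases. Promoter windows of the antisense and the sense gene shared bases on opposite strands in 53 pairs. Sharing also admits an antisense start just inside the sense gene, as in CLRN1-AS1, DIO2-AS1 and DDX26B-AS1, so not each of the 53 is divergent. In these, 9 sense genes rose and 2 fell, and 1 antisense gene, SLC2A1-AS1, passed. These are 20.8% of the 53 sense genes, against 16.4% of all sense partners and 9.9% of all genes, and 1.89% of the 53 antisense genes, against 2.05% of all members. In the other 10 pairs with a called sense gene the sense change ran from -0.42 to 0.56 and the antisense change from -0.12 to 0.13, with the same sign in 4. Over the 48 head to head pairs r was 0.48 and rho 0.23; without the SLC2A1 pair r was 0.30. Over the 53 pairs with shared windows r was 0.38, and 0.21 without it. Leaving out that pair was chosen after seeing the data. In the 96 pairs that overlapped at their 5′ ends r was -0.04.

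The sense windows of 3 pairs are shown because antisense and sense start lie close together in each and the sense gene passed in all 3; whether the 3 antisense changes differ from each other was not tested; the capitals run from the antisense start to the sense start, and positions are those of RefSeq in GRCh38.p14.
SLC2A1 (chr1:42958819-42959118, - strand): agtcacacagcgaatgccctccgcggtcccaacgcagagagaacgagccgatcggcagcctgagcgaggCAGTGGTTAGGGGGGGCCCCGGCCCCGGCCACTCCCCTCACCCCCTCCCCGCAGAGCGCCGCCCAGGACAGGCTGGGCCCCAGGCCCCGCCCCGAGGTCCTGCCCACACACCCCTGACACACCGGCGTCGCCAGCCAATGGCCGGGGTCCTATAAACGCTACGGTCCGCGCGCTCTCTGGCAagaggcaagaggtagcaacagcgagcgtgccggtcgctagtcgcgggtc
FLVCR1 (chr1:212858025-212858324, + strand): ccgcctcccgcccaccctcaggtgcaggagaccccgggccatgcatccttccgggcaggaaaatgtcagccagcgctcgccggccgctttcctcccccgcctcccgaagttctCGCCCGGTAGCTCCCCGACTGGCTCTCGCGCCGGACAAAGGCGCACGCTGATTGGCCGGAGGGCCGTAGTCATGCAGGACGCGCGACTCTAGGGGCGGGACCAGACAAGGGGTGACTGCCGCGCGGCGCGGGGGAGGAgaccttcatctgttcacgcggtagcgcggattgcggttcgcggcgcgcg
DICER1 (chr14:95157480-95157779, - strand): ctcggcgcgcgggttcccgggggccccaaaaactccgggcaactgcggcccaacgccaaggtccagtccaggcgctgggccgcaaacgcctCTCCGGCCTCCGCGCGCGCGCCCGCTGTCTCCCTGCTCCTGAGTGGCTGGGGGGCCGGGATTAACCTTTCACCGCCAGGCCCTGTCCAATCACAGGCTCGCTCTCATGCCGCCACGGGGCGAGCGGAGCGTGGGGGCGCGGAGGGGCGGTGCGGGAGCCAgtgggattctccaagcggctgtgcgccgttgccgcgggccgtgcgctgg
The antisense start lay 181 bases upstream of the SLC2A1 start, 137 upstream of FLVCR1 and 159 upstream of DICER1, by the table's starts.

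Each of these 3 sense genes rose. FLVCR1, a membrane transporter gene known for heme export, had 7.35, 7.32 and 7.47 in miR-200c cultures, against 6.95, 6.72 and 6.83 in Ctrl cultures (change 0.55, SE 0.06, limma adjusted p = 9.46e-04). FLVCR1-AS1, now FLVCR1-DT, had 6.06, 6.07 and 6.10 in miR-200c cultures, against 5.98, 5.89 and 5.96 in Ctrl cultures, and did not pass (change 0.13, SE 0.04, adjusted p = 0.0624). Its groups did not overlap, as was so in 26% of all genes. DICER1, whose product cuts microRNA precursors, had 7.992, 8.001 and 7.980 in miR-200c cultures, against 7.49, 7.38 and 7.42 in Ctrl cultures (change 0.56, SE 0.04, adjusted p = 6.52e-05). DICER1-AS1 had 4.67, 4.67 and 4.75 in miR-200c cultures, against 4.66, 4.70 and 4.72 in Ctrl cultures, with overlapping groups, a change of 0.00 (SE 0.04) and an adjusted p of 0.996. All 17 rows of DICER1-AS1 lay within the background range, as did all rows of SLC2A1-AS1, while 4 of 8 rows of FLVCR1-AS1 lay above it. The plot of pairs by array sets these values beside each other.

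**Figure D5:**
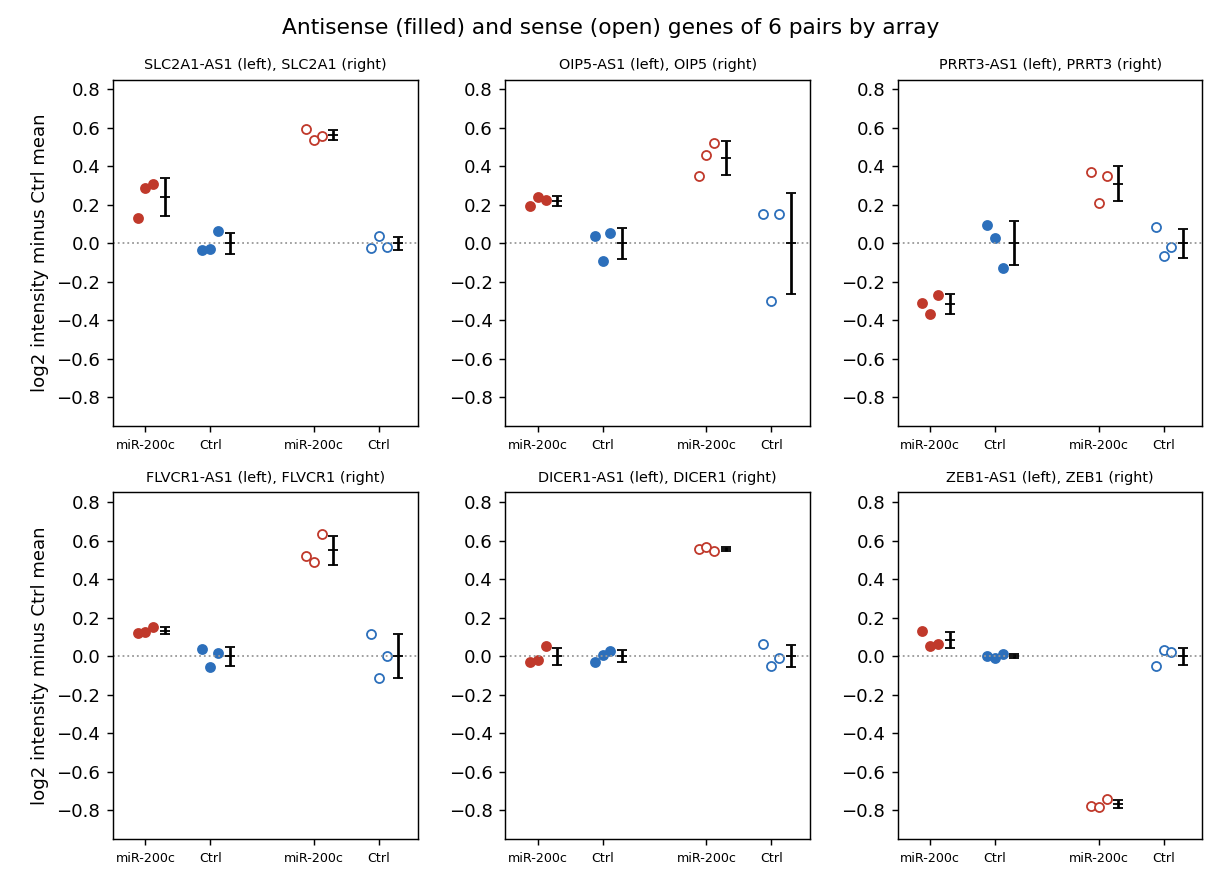
Log2 intensity of each array minus the Ctrl mean of the same gene, for the antisense gene (filled, left) and the sense gene (open, right) of 6 pairs, miR-200c cultures left of Ctrl cultures, with mean and SD (n = 3 each). Both genes lie above 0 in miR-200c cultures for SLC2A1 and OIP5, and they part for PRRT3, where both passed. For ZEB1 the sense gene alone passed, and DICER1-AS1 stays at 0 while DICER1 rose by 0.56.

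Among antisense RNAs often studied in cancer or development, those named whatever their result did not pass. CDKN2B-AS1, also known as ANRIL, overlaps the cell cycle inhibitor gene CDKN2B on chromosome 9 and had 64 rows. It had 5.59, 5.54 and 5.59 in miR-200c cultures, against 5.69, 5.65 and 5.64 in Ctrl cultures; the groups did not overlap, but its change of -0.08 did not pass in limma (SE 0.03, adjusted p = 0.185), nor did CDKN2B (change 0.06, adjusted p = 0.590). LOXL1-AS1, opposite a gene whose lysyl oxidase product crosslinks matrix, had a change of -0.11 (SE 0.06, adjusted p = 0.330). DLX6-AS1 and FGD5-AS1 had a change of -0.02 and 0.02 (adjusted p = 0.780 and 0.838). TMPO-AS1 had a change of 0.03 (SE 0.07, adjusted p = 0.885), while TMPO, which encodes lamina-associated polypeptides, rose by 0.18 (adjusted p = 0.0438); its call was kept only without miR-200c A of the 6 fits with 1 array left out, with adjusted p of 0.0710 to 0.143 in the others.

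Short lists of chosen sense genes by role (24, 32 and 14 names) gave few members. These were too few to set their counts apart from the 9.9% of all genes called (6.06% higher and 3.84% lower). The lists do not hold every gene of a role: OIP5, with both genes of its pair called, is on none of them. Of 9 pairs with a sense gene of epithelial-mesenchymal transition, junctions or matrix, 1 sense gene fell (ZEB1) and none rose, and none of their antisense partners passed, with changes from -0.11 to 0.08. Of 6 pairs with developmental transcription factors no gene of either kind passed, with antisense changes from -0.13 to 0.05. Of 4 pairs on the list of cell cycle genes 1 sense gene (TMPO) rose and no antisense gene passed. The 20 antisense genes above the background range that did not pass had changes from -0.25 to 0.12, the lowest in HNRNPU-AS1 (adjusted p = 0.243), which RefSeq places on the strand of HNRNPU itself.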

How the data were processed

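Expression was measured in 6 cultures with 1 array each. The deposited values are log2 intensities per probe set, made by the authors. The submitters' processing notes name Partek; how background, normalization and summarisation were handled, and on which build, is not stated there. Column medians lay between 5.18 and 5.21, so no further normalization was applied. Having 3 arrays per group sets the precision. The members and lists were chosen with earlier results of these data known.

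Of 925032 rows, 345 were controls. By the platform annotation 672085 rows had 1 symbol, 39483 several and 213119 none; a gene's value was the mean over rows with 1 symbol, which leaves ZEB2 without a value and its antisense gene outside the members, since the 101 rows of ZEB2 also name ZEB2-AS1. Of 484 -AS1 names, 30 had no sense gene with rows and 15 had fewer than 3 rows. All 439 members matched RefSeq, 65 by synonym, and some no longer carry an antisense name, such as ATPAF1-AS1 (now TEX38) and EIF2B5-AS1 (now LINC01840). Of the pairs, 8 lay more than 5000 bases apart and 134 could not be placed. Membership rests on the array's symbol alone. Genes and rows were tested with limma 3.58.1 (lmFit, eBayes, two-sided, Benjamini-Hochberg over all genes or all rows, threshold 0.05) under R 4.3.3 with the data.table package; Python 3.11.15 with pandas 2.3.3 and matplotlib 3.10.9 did the rest. On simulated data for the gene fit of 22085 genes, 50 genes drawn from all genes were changed at each size. The fit recovered 50% of the genes changed by 0.25, 88% at 0.5 and 100% at both 1 and 2, with 4 false calls. Fewer genes were changed there than the 9.9% called in the data, and they were not drawn from the antisense genes. These rates are therefore not those of the members. Named pairs were the 9 with a called antisense gene, the 8 with the largest sense change among those with the sense gene alone called, and those of a list of known antisense names that met the member rule, 22 in all; HNRNPU-AS1 and ZNRD1-AS1 were named after their values were seen. Alternatives were the median of rows, exon region rows, brighter rows, quantile normalization, a replicate block, trend and robust eBayes, brighter genes, other row minimums and leaving out each array. The letters A, B and C were not taken to pair cultures.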

Additional observations from a re-analysis of the deposited data

How the results depend on the processing

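Taking the median over rows, limma called 2 antisense genes higher and 0 lower, and 18 sense genes were higher and 5 lower, 0 pairs were called in the same and 0 in opposite directions, and r was 0.00916; 2 of the 9 antisense calls held, RAB11B-AS1 and C13orf44-AS1, while the share of all genes called was 3.15% in place of 9.9%. With brighter rows alone (319 pairs) 3 antisense genes were higher, 24 sense genes were higher, 0 pairs were called in the same and 1 in opposite directions, and r was 0.0263. With genes above the background range alone (18 pairs) there were 3 antisense genes higher and 1 lower, 4 sense genes higher and 1 lower, 1 pair in the same and 1 in opposite directions, and r was -0.0305; fewer genes enter there by construction. With members of 10 or more rows (165 pairs) 0 antisense genes were lower, 13 sense genes higher and 6 lower, 1 pair in the same and 0 in opposite directions, and r was 0.15, again over fewer pairs. Exon region rows alone and the replicate block each left 1 pair in opposite directions. XXYLT1-AS1 changed sign with the median of rows (0.0202) and with exon region rows (0.00880). With the SLC2A1 pair left out r was 0.30 for head to head pairs and 0.21 for shared windows. Leaving out 1 array gave 3 to 6 antisense genes higher, 1 to 3 lower, 27 to 42 sense genes higher where all arrays gave 52, 14 to 19 lower, 0 to 2 pairs in the same and 0 to 1 in opposite directions, and r of 0.0400 to 0.0887; antisense genes higher were fewest without miR-200c B (3), antisense genes lower without miR-200c A and miR-200c C (1 each), and sense genes higher without miR-200c B (27) and miR-200c C (31), while 5.92% to 8.58% of all genes were called. Quantile normalization and trend with robust eBayes moved no count by over 1.5 times. Beyond the smaller sets named, the cause was not tested.

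Same-lettered cultures did not deviate together (correlation of deviations -0.17 for A, -0.03 for B and 0.22 for C), so the letters were not used as pairs; with the replicate block 7 antisense genes were higher and 2 lower, and 42 sense genes higher and 19 lower. Over the genes of the 22 named pairs, 480 of 544 values under these alternatives kept their side of the threshold. That count includes genes that had not passed in the main fit and again did not pass, so it does not measure how well the calls held. Another 62 lost their call, 0 gained one, and 2, those of XXYLT1-AS1, were counted as changed in sign. Among the called antisense genes, KLHL7-AS1 lost its call in 9 alternatives and kept it in 3, and KDM4A-AS1 lost it in 7 and kept it in 6. HAS2-AS1, RAB11B-AS1 and C13orf44-AS1 lost it in 1 each. Sign changes of genes that had not passed were not counted as such. With 1 array left out the change of CHODL-AS1 ran from -0.02 to 0.08 and that of TMPO-AS1 from -0.06 to 0.07. Depth here means signal over background, and 415 of 439 antisense genes lay in the background range.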

Other observations

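Of 201 further genes with names ending in -AS, -AS2, -AS3, -IT1 or -OT1, or -AS1 names outside the rule, 3 fell and none rose in limma (1.49% against 9.9% of all genes). They were FGF14-AS1, PAPPA-AS1 and WARS2-IT1, with changes of -0.19, -0.15 and -0.19. The 72 -IT1 names, for RNAs from introns, included 1 of them and had a median change of -0.02, and none of 61 -AS2 names passed. These genes were named after their values were seen, and each mean lay within the background range.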
